A study of Mus musculus with 6 samples.

Results

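The genes of the proteasome were followed in RNA from polysome fractions of RAW264.7 cells, a mouse macrophage-like line. Members were the rows of the deposited table whose symbol is Psma, Psmb, Psmc, Psmd, Psme, Psmf or Psmg followed only by digits. This rule found 47 of 19233 genes. It leaves out Psmc3ip and Psme2b and the pseudogene rows Psma5-ps and Psmb7-ps2, and Psmb11, the thymic core subunit, was not analysed here. The study set 3 libraries from cells given BMH-21, a compound that blocks RNA polymerase I, against 3 libraries from cells given its solvent DMSO. All 6 libraries are titled M2, the alternatively activated macrophage state, but the protocol describes polarizing bone marrow macrophages, with IL-4 or with interferon gamma and LPS, and does not say which was given to the line. Per the labels, BMH-21 was at 500 nM for 24 h, starting 24 h after polarization. The question was how inhibition of RNA polymerase I changes the mRNAs on polysomes of such cells. RAW264.7 is an established line grown in culture, not a primary macrophage, and the labels do not say that replicates were separate cultures. The p-values therefore measure the spread between these libraries, which may be technical.

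The proteasome degrades proteins tagged with ubiquitin. Its core particle is a barrel of outer alpha rings, encoded by Psma genes, and inner beta rings, encoded by Psmb genes, in which 3 kinds of beta subunit cut peptide bonds. A regulatory particle sits on the barrel's ends: a base with a ring of ATPases, encoded by Psmc genes, unfolds the substrate, and a lid, encoded by Psmd genes, removes the ubiquitin chain. In immune cells, and more so after interferon gamma, the catalytic subunits encoded by Psmb5, Psmb6 and Psmb7 are replaced in new particles by those of Psmb8, Psmb9 and Psmb10. Together with the Psme1 and Psme2 activator, this immunoproteasome favours peptides that suit MHC class I molecules, and macrophages carry it. The transcription factor NRF1, encoded by Nfe2l1, raises proteasome genes together when proteasome activity falls.

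Values are FPKM, fragments per kilobase of transcript scaled to library size, so levels of different genes can be set side by side. They are relative to the reads of a library, and each reflects both the amount of an mRNA in the cells and the part of it on polysomes. These were not separated, and fewer cells of a type and less RNA per cell cannot be told apart. Low values implied 18770000 to 22560000 reads in the BMH-21 libraries and 21610000 to 24070000 in the DMSO libraries. All 9 macrophage markers were above 1 FPKM, with summed levels of 19236 to 20482 FPKM in BMH-21 libraries and 11177 to 11595 FPKM in DMSO libraries. Lyz2 made up most of that sum, at 16726 to 17915 FPKM in BMH-21 and 9210.4 to 9634 FPKM in DMSO libraries. Every BMH-21 library lay above every DMSO library for Lyz2, Cd68, Itgam, Spi1 and Tyrobp, and below for Ptprc, Csf1r, Adgre1 and Fcgr1, with Adgre1 at 22.3 to 23.3 FPKM in BMH-21 and 39.3 to 41.9 FPKM in DMSO libraries. Of 10 listed markers of T cells, B cells and fibroblasts, the 4 with a row (Cd4, Cd79a, Col1a1 and Pdgfra) reached at most 0.0608 FPKM. Epithelial markers split the libraries in another way: Epcam, Krt8, Krt18 and Cdh1 summed to 10.9 to 13.9 FPKM in the BMH-21 libraries, to 9.66 FPKM in DMSO replicate 3, to 0.088 FPKM in DMSO replicate 2 and to 0 in DMSO replicate 1. The part of either list in the results was not tested. DMSO replicate 2 is labelled polyA RNA and the other 5 libraries total RNA. A fit with DMSO replicate 3 as the only control was added after seeing the data.

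With BMH-21 the proteasome mRNAs were mostly lower on polysomes, and the ATPases of the base fell the furthest. All 47 members passed the filter of at least 1 FPKM in at least 3 libraries, and limma's test on log2(FPKM + 1), adjusted over all 9748 tested genes, called 42 lower and 1 higher, with 4 not passing. Of all tested genes 78.3% were called in either direction, 58.4% lower and 19.9% higher. In 42 members every BMH-21 library lay below every DMSO library (59.5% of all tested genes), and in 1 member every BMH-21 library lay above (20.3%). The members' median change was −0.40 (log2, BMH-21 minus DMSO), beside −0.23 for all tested genes. On this log2(FPKM + 1) scale, 14 members (29.8%) were called lower by at least 1.5-fold, beside 19.7% of all tested genes. The 14 members were the 6 ATPase genes, 4 lid genes, 2 alpha genes, Psmd4 and Psmb9. The scale shrinks the changes of low genes, so these shares and medians also depend on the level of the genes compared. Psme4, a low member, had a ratio of BMH-21 to DMSO means of 0.658 and was not among the 14. With DMSO replicate 3 as the only control, assumed to vary like the BMH-21 libraries, 39 members were called lower and 1 higher, beside 51.2% and 16.3% of all tested genes, and the calls of Psmb5, Psmg4 and Psma8 were lost.

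The scaling of the libraries decided many of the smaller changes. Deposited values summed to 368625 to 373396 FPKM in BMH-21 libraries and to 339022 to 343455 FPKM in DMSO libraries. Median-ratio scaling, which sets the typical gene's change near 0, moved the all-gene median by 0.22 and called 36.9% of all genes lower and 36.9% higher. Of the members it called 26 lower and 5 higher. Across the deposited scale and the 4 other scalings tried, 22 members were called lower every time, 46.8% of them, beside 30.8% of all tested genes. These were all 6 ATPases, 5 of 8 lid genes, 2 of 3 other base genes, 2 of 7 alpha genes, 2 of 7 constitutive beta genes, 2 of 5 immunoproteasome genes, Psme3, Psme4 and Psmg1.

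**Figure D1:**
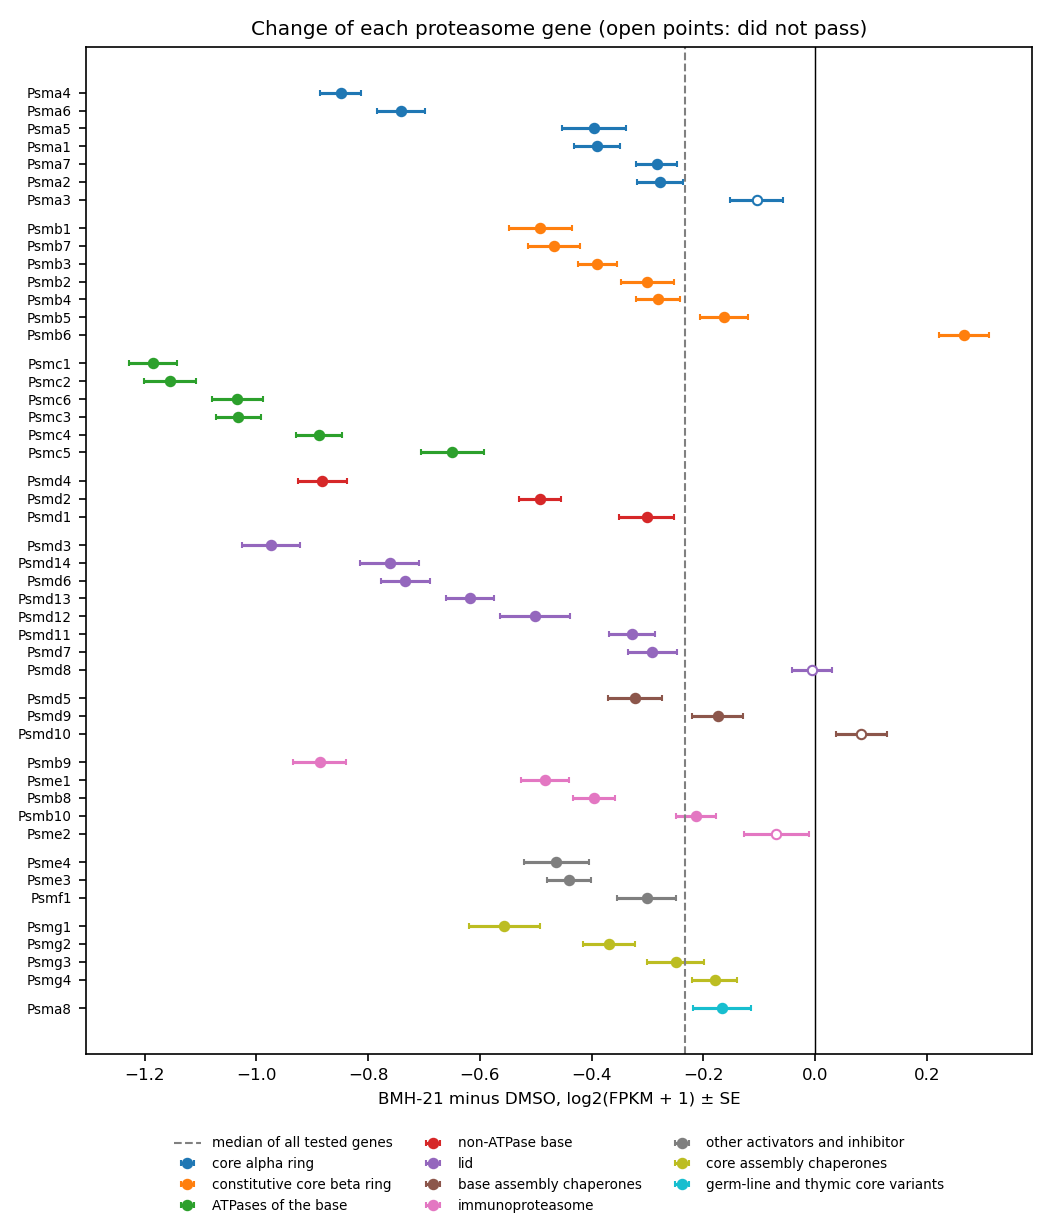
Change of each of the 47 proteasome genes, BMH-21 minus DMSO on the log2(FPKM + 1) scale of the deposited values (horizontal axis), with limma's SE as bars, ordered within subgroups; open points did not pass at an adjusted p of 0.05. The dashed line is the median of all tested genes, −0.23: the 6 ATPase genes lie between −1.18 and −0.65, below 0 under each scaling tried, while Psmb6 at 0.27 lies right of 0, a call lost with quantile normalization.

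The promoter windows of 4 members that mark this contrast are shown, from RefSeq on GRCm38.p6, 250 bases before to 50 after the start, with motif matches in capitals: Psmc1, one of the members that fell most, Psmb6, which was higher, and the neighbouring immunoproteasome genes Psmb9 and Psmb8, which fell unequally.
Psmc1: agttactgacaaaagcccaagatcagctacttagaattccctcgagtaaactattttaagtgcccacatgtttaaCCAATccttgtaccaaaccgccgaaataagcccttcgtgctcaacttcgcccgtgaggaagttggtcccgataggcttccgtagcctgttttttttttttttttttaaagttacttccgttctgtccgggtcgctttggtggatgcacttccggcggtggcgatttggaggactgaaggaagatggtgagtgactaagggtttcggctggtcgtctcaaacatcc
Psmb6: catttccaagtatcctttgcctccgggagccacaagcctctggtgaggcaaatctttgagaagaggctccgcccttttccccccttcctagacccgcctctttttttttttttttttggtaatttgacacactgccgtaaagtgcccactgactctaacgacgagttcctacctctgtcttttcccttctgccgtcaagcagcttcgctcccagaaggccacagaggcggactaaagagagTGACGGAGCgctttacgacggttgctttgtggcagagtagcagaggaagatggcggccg
Psmb9: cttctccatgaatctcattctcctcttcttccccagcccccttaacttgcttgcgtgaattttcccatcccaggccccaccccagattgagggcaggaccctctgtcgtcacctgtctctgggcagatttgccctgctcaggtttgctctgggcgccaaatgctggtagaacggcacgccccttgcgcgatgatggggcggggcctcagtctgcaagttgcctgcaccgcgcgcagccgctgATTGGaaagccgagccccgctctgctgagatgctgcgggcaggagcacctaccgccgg
Psmb8: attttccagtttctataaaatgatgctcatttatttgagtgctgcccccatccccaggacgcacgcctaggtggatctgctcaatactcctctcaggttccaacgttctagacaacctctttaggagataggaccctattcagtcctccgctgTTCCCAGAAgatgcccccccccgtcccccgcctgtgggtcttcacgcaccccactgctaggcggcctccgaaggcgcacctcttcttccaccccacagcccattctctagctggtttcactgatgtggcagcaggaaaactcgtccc
The Psmc1 window is chr12:100109952-100110251 on the plus strand, Psmb6 chr11:70525107-70525406 plus, Psmb9 chr17:34187281-34187580 minus, and Psmb8 chr17:34197945-34198244 plus. Starts of the windows are those of RefSeq. The Psmb9 and Psmb8 windows lie wholly within the GENCODE gene positions given below, whose starts are further upstream.

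In these windows, the capitals in Psmc1 are CCAAT, 175 bases before the start, and in Psmb9 the same box on the other strand, 8 bases before the start. In Psmb6 they are TGACGGAGC, a match to the core of the antioxidant response element that NRF1 and related factors bind (searched as TGACNNNGC), which begins 9 bases before the start. In Psmb8 they are TTCCCAGAA, a match to the STAT pattern TTCNNNGAA, 97 bases before the start. Patterns were searched on both strands in 42 windows of the 39 members with an entry, and overlapping matches were kept. TGACNNNGC was in 14.3% of the members' windows and in 12.4% of all 32851 windows. CCAAT was in 31.0% and 37.4%, GAAANNGAA, a pattern of interferon response elements, in 16.7% and 8.56%, and TTCNNNGAA in 7.14% and 8.30%. Matches describe letters only. TGACNNNGC was in the windows of Psmb5, Psmb6, Psmc6, Psmd9, Psmd12 and Psme4, whose changes ran from −1.03 to 0.27.

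The 6 ATPases form the ring that unfolds substrates and opens the core's gate, and all fell on the deposited scale and under each other scaling. Their median change was −1.03, or −0.80 relative to the median of all genes. Psmc1 (chromosome 12, 100110154 to 100123405) encodes the ATPase whose tail helps to open the alpha ring. It had 56.9, 61.1 and 55.7 FPKM in BMH-21 libraries, against 133, 132 and 134 FPKM in DMSO libraries. The groups lie far apart, and the change was −1.18 ± 0.04 (SE, limma adjusted p = 7.3e-09). Psmc5 (chromosome 11, 106256154 to 106263120) fell least in the ring, to 59.6, 62.0 and 68.4 FPKM in BMH-21 libraries, against 96.1, 98.0 and 105 FPKM in DMSO libraries. Its change was −0.65 ± 0.06 (SE, limma adjusted p = 2.7e-06), and here too the groups did not overlap.

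Psmc2 had 13.5, 13.6 and 13.6 FPKM in BMH-21 libraries, against 29.5, 32.1 and 32.8 FPKM in DMSO libraries, a change of −1.15. The order of Psmc1 and Psmc2 depended on the pseudocount, with mean FPKM differing by −56.4% for Psmc1 and −56.9% for Psmc2. Psmc6 averaged 13.0 ± 0.366 and 27.8 ± 1.28 FPKM, Psmc3 28.5 ± 1.06 and 59.3 ± 0.403 FPKM, and Psmc4 38.4 ± 1.19 and 71.9 ± 2.28 FPKM, each in BMH-21 and then DMSO libraries (SD, n = 3 each). These changes were −1.03, −1.03 and −0.89. Over the other scalings, filters, pseudocount, block and left-out libraries, all 96 values of the 6 genes kept the call and the direction, between −1.31 and −0.33. Psmc3 shares 215 exon bases with Slc39a13 on the opposite strand, and the library kit is not stated to mark strand, so reads there cannot be told apart.

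The rest of the base holds the scaffold subunits Psmd1 and Psmd2 and the ubiquitin receptor Psmd4, and all 3 were called lower, the call of Psmd1 being lost under 3 of the scalings. Psmd4 (chromosome 3, 95032694 to 95042614) had 40.0, 39.9 and 37.8 FPKM in BMH-21 libraries, against 76.5, 72.1 and 70.9 FPKM in DMSO libraries. Every BMH-21 library lay far below every DMSO library, with a change of −0.88 ± 0.04 (SE, limma adjusted p = 5.3e-08). Psmd2 averaged 26.6 ± 0.563 FPKM in BMH-21 and 37.9 ± 0.289 FPKM in DMSO libraries (SD, n = 3 each). Psmd1 (chromosome 1, 86064387 to 86139151) had the smallest change of the 3, with 3.53, 3.74 and 3.51 FPKM in BMH-21 libraries, against 4.61, 4.76 and 4.61 FPKM in DMSO libraries. Its change of −0.30 ± 0.05 (SE, limma adjusted p = 0.00023) turned to 0.017 with quantile normalization. Psmd1 overlaps Gm21972 on the same strand and Htr2b on the other, so its reads are uncertain.

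Of the 8 lid genes, 7 were called lower, 5 of them under every scaling, and Psmd8 did not pass. Psmd3 (chromosome 11, 98682554 to 98695979), a structural subunit, had 15.5, 13.8 and 14.7 FPKM in BMH-21 libraries, against 31.0, 30.1 and 28.2 FPKM in DMSO libraries. Its change was −0.97 ± 0.05 (SE, limma adjusted p = 9.2e-08). Psmd14, the lid's deubiquitinating enzyme, fell to 14.2, 14.4 and 14.1 FPKM in BMH-21 libraries, against 22.9, 25.4 and 26.2 FPKM in DMSO libraries. Psmd6 and Psmd13 fell by 0.73 and 0.62 on the log2 scale, and Psmd12 by 0.50. Psmd11 and Psmd7, at −0.33 and −0.29, lost their calls with median-ratio and upper-quartile scaling. Psmd8 (chromosome 7, 29174188 to 29180701), a small lid subunit, had 263, 255 and 266 FPKM in BMH-21 libraries, against 264, 261 and 262 FPKM in DMSO libraries. The groups overlapped and the change was −0.0055 ± 0.036 (SE, limma adjusted p = 0.90), though it was called higher with median-ratio scaling, at 0.27, and lower with column totals made equal, at −0.13. It was the most abundant lid mRNA, and the next, Psmd7, averaged 68.4 ± 3.33 FPKM in BMH-21 and 83.8 ± 1.92 FPKM in DMSO libraries (SD, n = 3 each). Psmd13 shares 342 exon bases with Sirt3 on the other strand.

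**Figure D2:**
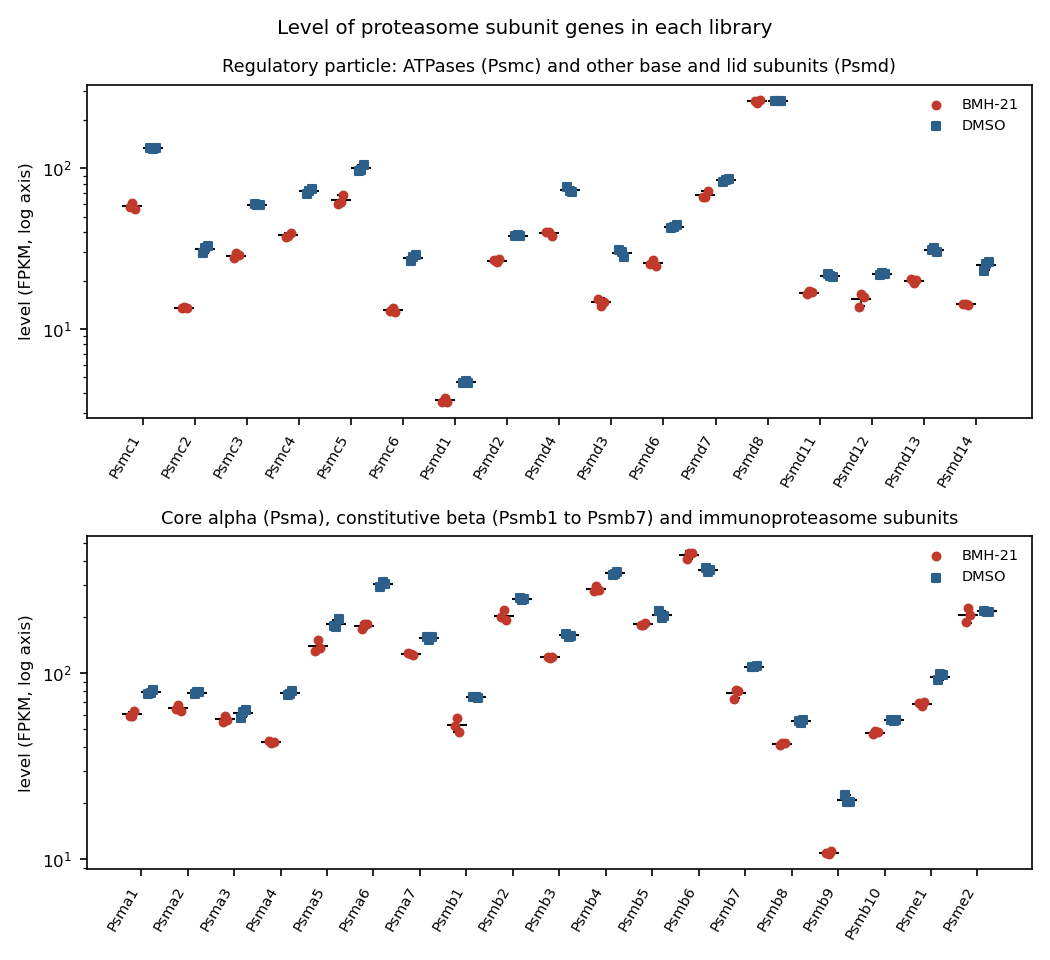
Level of regulatory particle genes (upper panel) and of core and immunoproteasome genes (lower panel) in each library, in FPKM on a log axis; red circles are the 3 BMH-21 libraries, blue squares the 3 DMSO libraries, and black marks the mean with its SD. Psmc1 stands at 55.7 to 61.1 FPKM in BMH-21 and 132 to 134 FPKM in DMSO libraries, while the groups overlap for Psmd8, Psma3 and Psme2 and Psmb6 is higher in BMH-21.

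The 7 alpha genes encode the outer rings, whose tails close the entry to the barrel. On the deposited scale 6 were called lower and Psma3 did not pass, and under every scaling Psma4 and Psma6 were called lower, whereas the direction of Psma2, Psma3 and Psma7 turned with upper-quartile scaling and that of Psma3 also with median-ratio scaling. Psma4 (chromosome 9, 54950790 to 54958030) had 43.4, 42.3 and 42.6 FPKM in BMH-21 libraries, against 76.2, 77.5 and 80.0 FPKM in DMSO libraries. The change was −0.85 ± 0.04 (SE, limma adjusted p = 2.5e-08), and the groups were well apart. Psma6, the most abundant alpha mRNA, had 172, 183 and 185 FPKM in BMH-21 libraries, against 291, 310 and 304 FPKM in DMSO libraries, a change of −0.74. The other called members fell less: Psma5 by 0.40 on the log2 scale, Psma1 by 0.39, and Psma7 and Psma2 by 0.28 each. Psma3 had 54.9, 58.9 and 56.0 FPKM in BMH-21 libraries, against 57.5, 62.0 and 63.3 FPKM in DMSO libraries (−0.10, limma adjusted p = 0.066). These overlap, and it was called lower with column totals made equal (−0.22), without BMH-21 replicate 2 (−0.13) or without DMSO replicate 1 (−0.14), and higher with median-ratio (0.17) and upper-quartile scaling (0.21).

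The constitutive beta ring, which holds the cutting sites, had a median change of −0.30, beside −0.23 for all tested genes. Its direction rested on the scaling. On the deposited scale 6 of its 7 genes were called lower and Psmb6 higher, while with median-ratio scaling 3 were lower and 1 higher. Psmb6 (chromosome 11, 70525367 to 70527858), the caspase-like catalytic subunit, had 409, 444 and 445 FPKM in BMH-21 libraries, against 367, 352 and 359 FPKM in DMSO libraries. It was the most abundant of the 47 members in both groups and the only member called higher (0.27 ± 0.04, SE, limma adjusted p = 0.00031). Quantile normalization left it at 0.090, which did not pass. Psmb1 (chromosome 17, 15475021 to 15499751), a structural subunit, fell furthest, to 52.2, 57.2 and 48.3 FPKM in BMH-21 libraries, against 74.4, 74.3 and 73.7 FPKM in DMSO libraries. Its change was −0.49 ± 0.06 (SE, limma adjusted p = 1.9e-05) and it was called lower under every scaling.

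The other catalytic subunits of this ring were lower. Psmb7, the trypsin-like subunit, had 73.1, 81.8 and 79.9 FPKM in BMH-21 libraries, against 108, 108 and 110.0 FPKM in DMSO libraries (−0.47 ± 0.05, SE, limma adjusted p = 7.3e-06). It was called lower under every scaling, and it shares 405 exon bases with Nek6 on the other strand. Psmb5, the chymotrypsin-like subunit, had 181, 182 and 187 FPKM in BMH-21 libraries, against 216, 198 and 202 FPKM in DMSO libraries (−0.16 ± 0.04, SE, limma adjusted p = 0.0058). Its direction turned with median-ratio scaling, at 0.11, and with upper-quartile scaling, which called it higher, at 0.15. Its call was lost with DMSO replicate 3 as the only control, at −0.14. Psmb5 has a near-identical copy, the processed pseudogene Gm3375 on chromosome 7, which matches 796 bases of its transcript at 98.9% identity. Gm3375 is itself listed at 120, 115 and 132 FPKM in BMH-21 libraries and at 134, 126 and 134 FPKM in DMSO libraries, so reads of Psmb5 may be split between the rows. The rows summed to 301, 297 and 319 FPKM in BMH-21 libraries, against 350.1, 324 and 336 FPKM in DMSO libraries. Copies of at least 90% identity were found for 11 members, and for 6 of them a copy has its own row. Psmc1 (AC110212.1, 95.6% identity over 1306 bases) and Psmd2 (Gm5422, 96.4% over 2726 bases) have copies without a row. Sharing of their reads could therefore not be seen. The non-catalytic genes Psmb2, Psmb3 and Psmb4 averaged 204 ± 12.5, 122 ± 0.950 and 283 ± 9.26 FPKM in BMH-21 libraries and 251 ± 3.84, 160 ± 2.67 and 344 ± 5.87 FPKM in DMSO libraries (SD, n = 3 each).

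Of the 5 immunoproteasome genes, 4 were called lower and Psme2 did not pass, and Psmb9 and Psme1 were called lower under every scaling. Psmb9 (chromosome 17, 34181987 to 34187764), which encodes the inducible counterpart of the Psmb6 subunit, had 10.8, 10.7 and 11.1 FPKM in BMH-21 libraries, against 22.2, 20.3 and 20.3 FPKM in DMSO libraries. This was the largest change of the 5, at −0.89 ± 0.05 (SE, limma adjusted p = 8.5e-08), and the groups were far apart. Psmb8 (chromosome 17, 34197721 to 34201454), the counterpart of Psmb5, lies 9956 bases from Psmb9 in the MHC region. It had 41.0, 42.3 and 42.1 FPKM in BMH-21 libraries, against 55.6, 54.0 and 56.3 FPKM in DMSO libraries (−0.40 ± 0.04, SE, limma adjusted p = 4.9e-06), a call lost with upper-quartile scaling, and it shares 498 exon bases with the antisense gene Gm20496. Psmb10 (chromosome 8, 105935735 to 105938444), the counterpart of Psmb7, had 47.1, 48.9 and 48.2 FPKM in BMH-21 libraries, against 56.3, 55.3 and 55.9 FPKM in DMSO libraries. Its change of −0.21 ± 0.04 (SE, limma adjusted p = 0.00034) turned to 0.057 with median-ratio scaling. Upper-quartile scaling called it higher, at 0.10. Psmb9 shares 212 exon bases with Tap1 on the other strand, where reads cannot be told apart.

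The activator's subunits, encoded by neighbouring genes on chromosome 14, were unequal. Psme1 (55578123 to 55581529) had 68.9, 66.5 and 69.8 FPKM in BMH-21 libraries, against 91.5, 98.7 and 97.9 FPKM in DMSO libraries (−0.48 ± 0.04, SE, limma adjusted p = 3.0e-06). Psme2 (55587441 to 55591113) had 188, 224 and 205 FPKM in BMH-21 libraries, against 217, 213 and 215 FPKM in DMSO libraries (−0.069 ± 0.058, SE, limma adjusted p = 0.30). The BMH-21 libraries of Psme2 spread around the DMSO values, and without BMH-21 replicate 2 it was called lower, at −0.13, while median-ratio scaling called it higher, at 0.20, and both equal totals and quantile normalization called it lower, at −0.19 each. Psme2b, which matches Psme2 at 99.4% identity over 794 bases, was listed at 0.517 to 1.32 FPKM in BMH-21 and 1.27 to 1.69 FPKM in DMSO libraries.

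The balance between inducible and constitutive catalytic subunits did not shift one way. The ratio of Psmb9 to Psmb6 was 0.0263, 0.0241 and 0.0250 in BMH-21 libraries, against 0.0605, 0.0576 and 0.0567 in DMSO libraries, a difference of −1.15 in log2 of the ratio of FPKM + 1. Psmb8 to Psmb5 was 0.227, 0.232 and 0.225 in BMH-21 libraries, against 0.257, 0.273 and 0.279 in DMSO libraries (−0.23). Psmb10 to Psmb7 moved the other way, at 0.645, 0.598 and 0.603 in BMH-21 libraries, against 0.522, 0.513 and 0.508 in DMSO libraries (0.26). In all 3 ratios the groups did not overlap, and each had p = 0.10 by a two-sided exact permutation test, 0.10 adjusted over the 3, the smallest p that 3 against 3 libraries allow. The test therefore could not pass at 0.05. With quantile normalization the differences were −0.74 for Psmb9 to Psmb6, −0.062 for Psmb8 to Psmb5 and 0.31 for Psmb10 to Psmb7. Taking Psmb5 and Gm3375 together, Psmb8 stood at 0.136, 0.142 and 0.132 of the sum in BMH-21 libraries and 0.159, 0.167 and 0.168 in DMSO libraries. In both groups each inducible mRNA was less abundant than its constitutive counterpart.

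**Figure D3:**
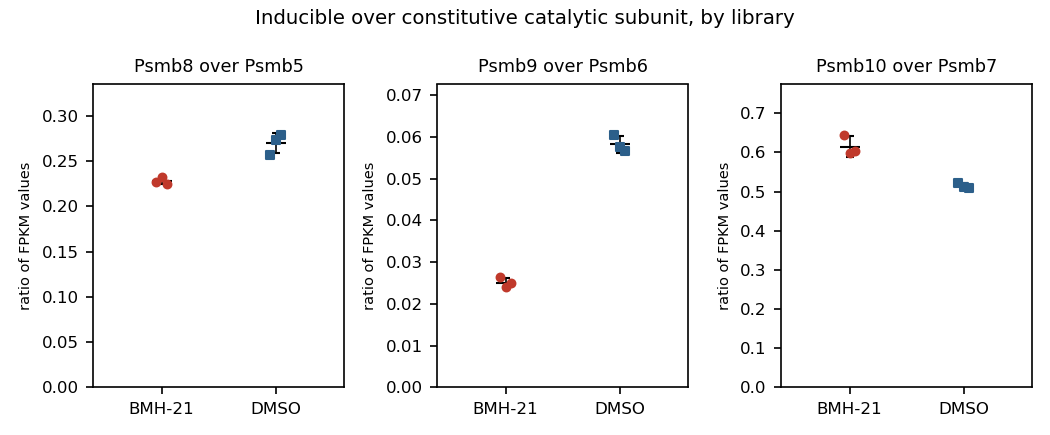
Ratio of FPKM values of the inducible to the constitutive catalytic subunit in each library, with BMH-21 as red circles and DMSO as blue squares, 3 libraries each, and black marks for the mean with its SD; vertical axes start at 0. Psmb9 over Psmb6 is 0.0241 to 0.0263 in BMH-21 and 0.0567 to 0.0605 in DMSO libraries, and Psmb10 over Psmb7 is higher in BMH-21.

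The other activators and the inhibitor were called lower, Psme3 and Psme4 under every scaling. Psme4 (chromosome 11, 30771726 to 30880361), a large activator linked to histone degradation, had 2.79, 2.51 and 2.76 FPKM in BMH-21 libraries, against 3.81, 4.28 and 4.15 FPKM in DMSO libraries (−0.46 ± 0.06, SE, limma adjusted p = 4.0e-05). It was the least abundant member in both groups. Psme3, a nuclear activator, averaged 61.7 ± 0.197 FPKM in BMH-21 and 84.1 ± 2.94 FPKM in DMSO libraries (SD, n = 3 each). Psmf1, an inhibitor of the core in vitro, averaged 4.62 ± 0.311 FPKM in BMH-21 and 5.92 ± 0.0698 FPKM in DMSO libraries, and its call was lost under 3 scalings.

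Chaperones that build the particles had median changes of −0.31 for the core and −0.17 for the base, beside −0.23 for all tested genes. Of the 4 core chaperones, which assemble the alpha ring, all were called lower on the deposited scale and only Psmg1 under every scaling. Psmg1 (chromosome 16, 95979933 to 95990960) had 54.6, 64.1 and 55.1 FPKM in BMH-21 libraries, against 89.9, 82.8 and 83.7 FPKM in DMSO libraries (−0.56 ± 0.06, SE, limma adjusted p = 1.8e-05). Its partner Psmg2 changed by −0.37, and Psmg3 and Psmg4, which also pair, by −0.25 and −0.18. Psmg3 shares 280 exon bases with Gm26938 on the same strand, so its reads are uncertain. The direction of Psmg3 and Psmg4 turned with median-ratio scaling (0.012 and 0.090) and upper-quartile scaling (0.055 and 0.13), which called Psmg4 higher. Of the 3 base chaperones, none was called lower under every scaling. Psmd5 had 4.40, 4.58 and 4.64 FPKM in BMH-21 libraries, against 5.68, 6.09 and 6.02 FPKM in DMSO libraries (−0.32 ± 0.05, SE, limma adjusted p = 0.00015). Psmd9 changed by −0.17 (limma adjusted p = 0.0054), but its direction turned with median-ratio (0.082), upper-quartile (0.12, called higher) and quantile scaling (0.056), and 1849 of its exon bases are shared with Gm26745 on the other strand. Psmd10, or gankyrin, which also binds the retinoblastoma protein, had 89.3, 97.7 and 93.4 FPKM in BMH-21 libraries, against 86.8, 86.0 and 91.8 FPKM in DMSO libraries. It did not pass (0.083 ± 0.045, SE, limma adjusted p = 0.12), though median-ratio scaling called it higher, at 0.35.

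Psma8 encodes an alpha subunit best known from the testis. It was listed at 10.5, 11.3 and 10.9 FPKM in BMH-21 libraries, against 12.7, 12.9 and 11.6 FPKM in DMSO libraries (−0.17 ± 0.05, SE, limma adjusted p = 0.013). The call was lost without DMSO replicate 2, at −0.14, and with DMSO replicate 3 as the only control, at −0.079. Its direction turned with median-ratio, upper-quartile and quantile scaling, and upper-quartile scaling called it higher, at 0.13.

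Summed over members, the parts of the particle moved unequally. The ATPases summed to 208, 218 and 219 FPKM in BMH-21 libraries, against 414, 421 and 434 FPKM in DMSO libraries, a difference of −49.2% in the means. The alpha ring summed to 653, 689 and 671 FPKM in BMH-21 libraries, against 915, 936 and 959 FPKM in DMSO libraries (−28.4%). The constitutive beta ring summed to 1316, 1398 and 1354 FPKM in BMH-21 libraries, against 1523, 1481 and 1505 FPKM in DMSO libraries (−9.76%). The lid differed by −15.8% and the immunoproteasome by −15.5%, but these and the beta ring were higher in BMH-21 with median-ratio or upper-quartile scaling. Sums follow the abundant members: Psmd8 made up most of the lid's total and Psmb6 and Psmb4 much of the beta ring's. All 47 genes summed to 3452 ± 87.5 FPKM in BMH-21 and 4336 ± 31.6 FPKM in DMSO libraries (SD, n = 3 each). Sums describe total level and were given no test, and the members were chosen with earlier results known.

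**Figure D4:**
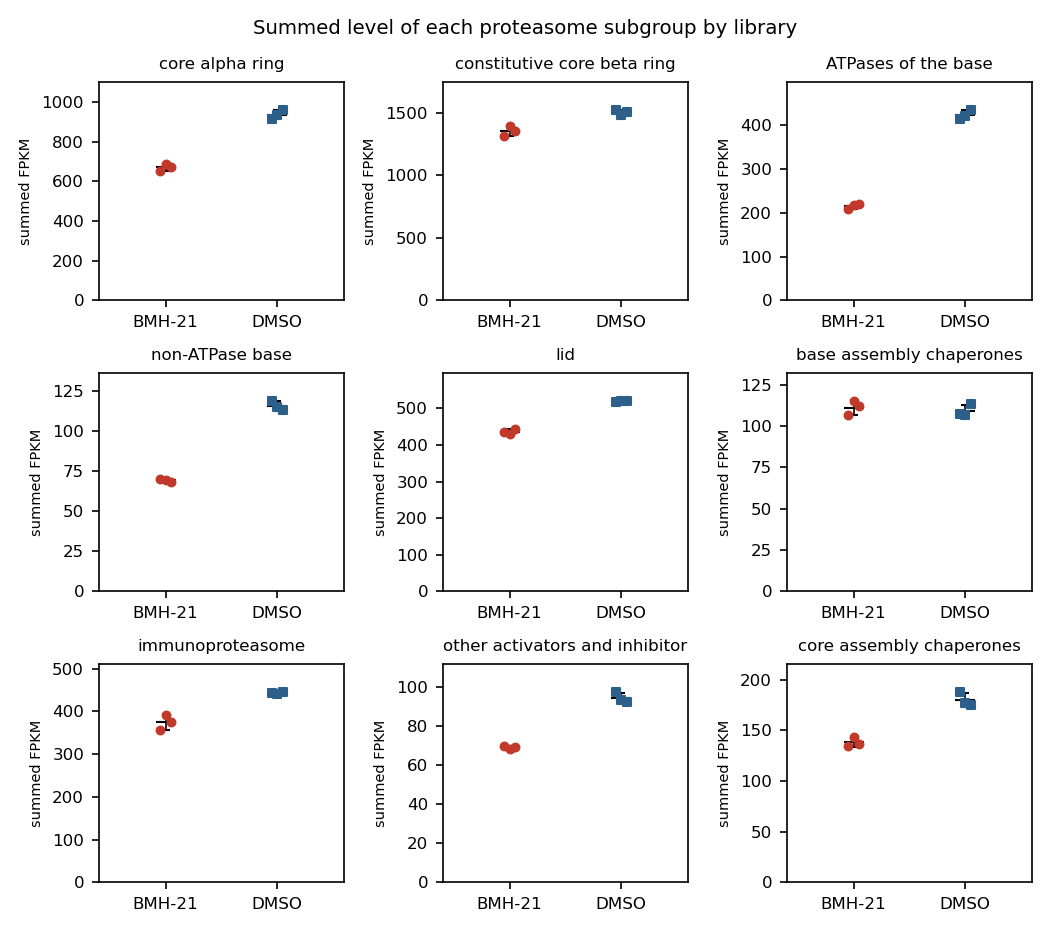
Summed FPKM of each proteasome subgroup in each library (vertical axes from 0), BMH-21 as red circles and DMSO as blue squares, 3 libraries each, with black marks for the mean and its SD, on the deposited scale. The ATPases sum to 208 to 219 FPKM in BMH-21 and 414 to 434 FPKM in DMSO libraries; the beta ring, lid and immunoproteasome are lower in BMH-21 on this scale but not with median-ratio or upper-quartile scaling, and the base chaperones overlap.

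The mRNA levels per length differed widely between members, which include activators, chaperones and exchangeable subunits that the particle does not hold in fixed proportions. Mean levels ran from 2.68 FPKM for Psme4 to 433 FPKM for Psmb6 in BMH-21 libraries, and from 4.08 to 359 FPKM for the same genes in DMSO libraries. Among the 6 ATPases, which the ring holds in fixed proportions, the DMSO means ran from 27.8 FPKM for Psmc6 to 133 FPKM for Psmc1. The order of levels was largely kept, with Spearman's rho 0.973 between BMH-21 and DMSO means across the 47 genes, which share libraries. Neighbours in that order often lie within their spread: Psmb8 and Psmb10 at 55.3 ± 1.17 and 55.8 ± 0.508 FPKM in DMSO libraries, for example. Across the 47 genes the change had a rho of 0.239 with mean level and −0.51 with coding length (Pearson's r 0.217 and −0.34). The ATPases' coding sequences are longer than those of the core genes, 1167 to 1425 bases against 603 to 831 for the alpha ring and constitutive beta ring, so length and subgroup are not separate here. The members lie on 16 chromosomes.

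Genes that work with the proteasome but are not members moved in both directions, as tested genes did as a whole. Of 32 listed genes, 31 were tested, and 24 were called lower and 7 higher, with a median of −0.35. Of all tested genes 58.4% were called lower and 19.9% higher, with a median of −0.23. With median-ratio scaling 14 of the listed genes were lower and 7 higher, beside 36.9% of all tested genes in each direction. The largest falls were those of the polyubiquitin gene Ubb and of Tap1 and Tap2, which carry peptides into the endoplasmic reticulum for MHC class I. Ubb had 165, 163 and 169 FPKM in BMH-21 libraries, against 325, 315 and 329.6 FPKM in DMSO libraries (−0.96 ± 0.04, SE, limma adjusted p = 1.2e-08). Tap1 had 2.14, 1.92 and 2.14 FPKM in BMH-21 libraries, against 4.76, 4.87 and 5.21 FPKM in DMSO libraries (−0.96), and Tap2 changed by −0.70. Tap1 is the gene that shares exon bases with Psmb9, whose change was −0.89.

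Among the genes called higher were Zfand2a, which encodes an arsenite-inducible protein that binds the regulatory particle, and Zfand5, which encodes a proteasome activator. Zfand2a averaged 48.6 ± 0.712 FPKM in BMH-21 and 21.7 ± 0.593 FPKM in DMSO libraries, with no overlap (1.13 ± 0.04, SE, limma adjusted p = 5.6e-09). Zfand5 averaged 12.7 ± 0.357 FPKM in BMH-21 and 8.21 ± 0.929 FPKM in DMSO libraries (SD, n = 3 each), a change of 0.58. Pomp, the core's maturation factor, averaged 60.6 ± 1.66 FPKM in BMH-21 and 52.7 ± 1.12 FPKM in DMSO libraries (0.20, limma adjusted p = 0.00093), a call lost when column totals were made equal. Nfe2l1, which encodes NRF1, fell to 55.6, 54.2 and 53.4 FPKM in BMH-21 libraries, against 77.4, 75.4 and 74.4 FPKM in DMSO libraries (−0.47, limma adjusted p = 1.4e-06).

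Irf1, which encodes an inducer of the immunoproteasome genes, was called lower. It had 3.35, 3.49 and 2.39 FPKM in BMH-21 libraries, against 4.45, 4.48 and 5.72 FPKM in DMSO libraries (−0.53, limma adjusted p = 0.0015), a call lost with upper-quartile scaling and quantile normalization. The regulatory particle has further subunits without a Psm symbol, which were on this list but were chosen for naming after their values were seen. Adrm1, a ubiquitin receptor of the base, had 23.8, 23.6 and 26.3 FPKM in BMH-21 libraries, against 37.2, 33.9 and 35.8 FPKM in DMSO libraries. The small lid subunit Sem1 averaged 63.9 ± 3.14 FPKM in BMH-21 and 48.6 ± 2.60 FPKM in DMSO libraries (SD, n = 3 each). Their changes were −0.52 and 0.39.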

How the data were processed

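RNA from polysome fractions of RAW264.7 cells was sequenced in 6 libraries, 3 with BMH-21 and 3 with DMSO, grouped by their titles. Per the submitters' processing notes, Trimmomatic 0.38, HISAT2, SAMtools and mm10 were used; how fragments were counted, and on which annotation, is not stated. The deposited table holds FPKM values made by the authors, read as FPKM from the values and header. Low values fell within 0.01 of whole reads for 75.4% to 77.5% of the genes examined, too few to recover counts, so no count model was run and intervals on counts are not given.

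Values were tested as log2(FPKM + 1) with limma 3.58.1 (R 4.3.3, intensity trend) on the 9748 genes that reached 1 FPKM in 3 or more libraries, with Benjamini-Hochberg adjustment over all of them and a threshold of 0.05. Fold changes on this scale understate those of low genes. The fit was run on simulated data in which few genes changed, equally up and down. That setting differs from these data, so the run cannot speak to the scaling of the libraries. Ratios of catalytic subunits used two-sided exact permutation tests (scipy 1.17.1). Alternatives covered pseudocount, filters, 4 scalings, trend, replicate block and each library left out. Same-numbered libraries had deviation correlations of −0.11, −0.09 and −0.06, so the numbers were not taken to pair them. Gene positions and coding lengths are from GENCODE M21 on GRCm38, copies were found with blastn 2.17.0+ (at least 90% identity over at least 50% of a transcript), and promoters are from RefSeq. Values in every library were given for the immunoproteasome and catalytic genes and for the largest called changes of each subgroup, and of the linked list for the 3 largest rises and falls and 4 regulators, of which some genes are not reported here; some others were added after their values were seen. The members and lists were chosen with earlier results of these data known.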

Additional observations from a re-analysis of the deposited data

How the results depend on the processing

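Of the 47 proteasome genes, median-ratio scaling called 26 lower and 5 higher, upper-quartile scaling 22 and 10, quantile normalization 37 and 0, and the 1.5-fold minimum 14 and 0. For all genes the lower and higher counts were 3600 and 3595 (median-ratio), 3294 and 3873 (upper-quartile), 3544 and 3491 (quantile) and 1919 and 478 (1.5-fold), and for linked genes 14, 12 and 14 lower under these scalings, and 5 lower and 2 higher at 1.5-fold. The ratio differences with quantile normalization were −0.062 for Psmb8 to Psmb5, −0.74 for Psmb9 to Psmb6 and 0.31 for Psmb10 to Psmb7. With equal totals the log2 ratios of the sums were −0.60 (alpha), −0.27 (beta), −1.10 (ATPases), −0.86 (other base), −0.37 (lid), −0.095 (base chaperones), −0.36 (immunoproteasome), −0.57 (activators) and −0.51 (core chaperones). With median-ratio scaling they were −0.21, 0.13, −0.70, −0.46, 0.026, 0.30, 0.032, −0.17 and −0.11, with upper-quartile scaling −0.16, 0.17, −0.66, −0.42, 0.070, 0.35, 0.077, −0.13 and −0.065, in the same order. With quantile normalization they were −0.24 (beta), −0.92 (ATPases), −0.62 (other base), −0.21 (lid), 0.084 (base chaperones), −0.37 (activators) and −0.29 (core chaperones). Single genes changed direction with equal totals (Psmd10 −0.038), with median-ratio scaling (Psma3 0.17, Psmb5 0.11, Psmd8 0.27, Psmd9 0.082, Psmb10 0.057, Psme2 0.20, Psmg3 0.012, Psmg4 0.090, Psma8 0.086), with upper-quartile scaling (Psma2 0.037, Psma3 0.21, Psma7 0.033, Psmb2 0.017, Psmb4 0.037, Psmb5 0.15, Psmd7 0.023, Psmd8 0.31, Psmd9 0.12, Psmb10 0.10, Psme2 0.25, Psmg3 0.055, Psmg4 0.13, Psma8 0.13), with quantile normalization (Psmd1 0.017, Psmd5 0.0034, Psmd9 0.056, Psmf1 0.018, Psma8 0.069) and without BMH-21 replicate 2 (Psmd8 0.011, against −0.017 without BMH-21 replicate 3). The cause was not tested. Leaving out 1 library at a time gave 41 to 44 members lower and 1 higher, 5450 to 5597 and 1816 to 1876 genes in all, and 21 to 24 linked genes lower. With DMSO replicate 3 as the only control, 4990 genes were lower and 1592 higher, and 21 linked genes lower and 7 higher. A replicate block gave 42 members lower and 1 higher and changed no member's call, but the numbers did not pair the libraries. Pseudocount, filters and trend changed no member's call.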
